A study of Mus musculus with 4 samples.

Results

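The genes described here are 10 subunits of the Polycomb repressive complexes, Ezh1, Ezh2, Eed, Suz12, Jarid2, Phf19, Bmi1, Ring1, Rnf2 and Cbx7, chosen by gene symbol from the 50600 genes of the deposited tables. All 10 were found. They were measured by RNA-seq in 4 libraries of T helper 17 (Th17) cells, helper T cells named for their cytokine IL-17. The cells were primary cells from C57BL/6NJ mice, made with a protocol that the labels name as one for CD4 T cell differentiation. Biological replicate numbers 1 to 4 come from the labels, which carry 1 donor entry for all libraries and leave age and sex open. The headers of the deposited tables name a 24 hour sample. No other cell type, time or treatment was measured, so every value describes 1 group. The p-values concern these libraries only. Those for single genes rest on a spread between libraries that was estimated across genes.

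Polycomb proteins keep genes silent through marks on histones, and work in 2 main complexes. Polycomb repressive complex 2 (PRC2) methylates lysine 27 of histone H3 through EZH1 or EZH2, held together by EED and SUZ12. Polycomb repressive complex 1 (PRC1) attaches ubiquitin to histone H2A through RING1 or RNF2, each paired with a PCGF protein such as BMI1, and its CBX subunits bind the methyl mark that PRC2 writes. In T helper cells, EZH2 is known as a restraint on cytokine and lineage regulator genes of other subsets.

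Total counts of read pairs were 19332509 in replicate 2, the lowest, and 48558772 in replicate 4, the highest, and single members had between 356 counts (Phf19, replicate 2) and 15575 counts (Suz12, replicate 4). The label of the cells was checked against marker genes. No marker of other helper T cell subsets was included, so the presence of such cells was not checked. The summed level of Cd3e, Cd4 and Trac was 1573 to 1624 TPM (a level corrected for gene length and scaled to the same total in every library), and that of Il17a, Il17f, Il23r and Ccr6 was 458 to 647 TPM. Most of the latter sum was Il17f, at 391 to 557 TPM. Il17f varied between libraries (negative binomial deviance test at edgeR's trended dispersion, adjusted p = 0.0470). The 14 marker genes of CD8 T, B, myeloid, NK and red blood cells summed to 0.259 to 0.653 TPM. Of these, 7, including Lyz2, Csf1r, S100a8, S100a9, Ncr1 and Klrb1c, had no count. The libraries fell into pairs by sex-linked genes: the Y-linked gene Ddx3y stood at 77.8, 58.9, 0.240 and 0.0925 TPM in replicates 1 to 4, and Xist, the RNA of the inactive X chromosome, at 0.916, 1.01, 154 and 152 TPM. This goes against 1 donor entry for all libraries if that entry stood for 1 mouse. In bulk RNA, fewer cells of a type and less RNA per cell cannot be told apart.

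All 10 genes were called above 1 TPM (edgeR quasi-likelihood F test, Benjamini-Hochberg adjusted over 21764 protein-coding genes, 45.9% of which were called above). DESeq2's Wald test also called all 10, and 45.7% of protein-coding genes. Their median level was 47.6 TPM, beside 0.411 TPM over all protein-coding genes and 26.0 TPM over the 11171 of them that averaged 10 or more counts. The highest, Suz12, stood 22.1-fold above the lowest, Ezh1. The 3 highest, Suz12, Eed and Ezh2, were genes of the PRC2 core, to which the lowest, Ezh1, also belongs. Next came 2 genes of PRC1.

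**Figure D1:**
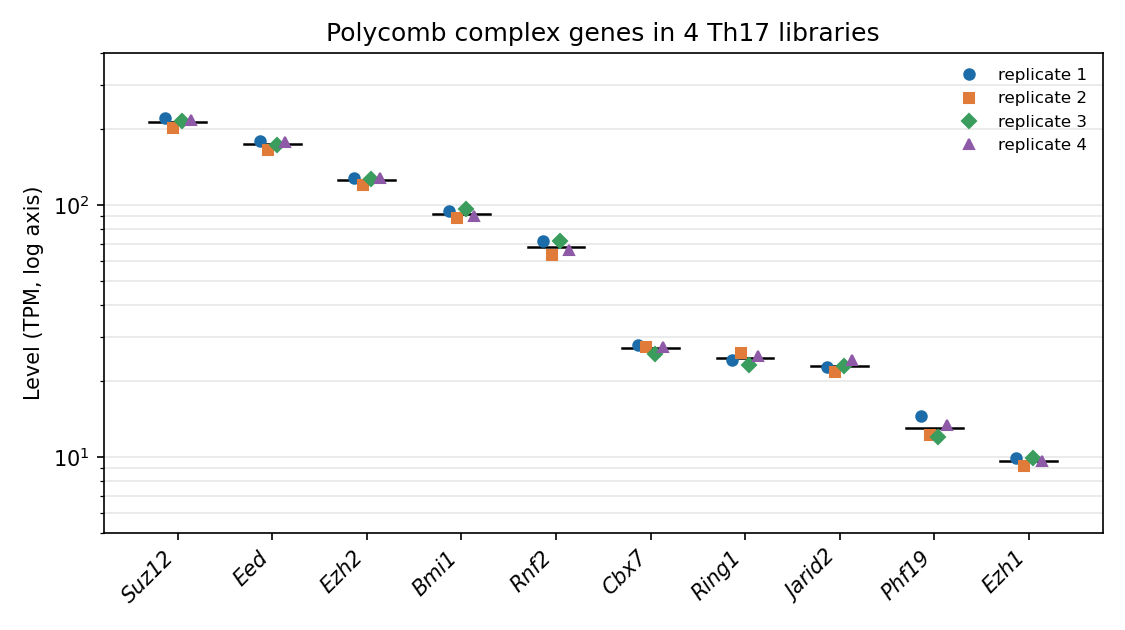
Level of each Polycomb complex gene in TPM on a log axis, 1 symbol per library (replicates 1 to 4), with the mean over libraries as a bar. The genes run from Suz12 at 214 TPM to Ezh1 at 9.67 TPM, and the spread within a gene is small beside the distance between most neighbours.

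Suz12, Eed and Ezh2 of the PRC2 core came first. Suz12 (mm10 chromosome 11, 79993106 to 80034123, plus strand, ENSMUSG00000017548), whose protein is the scaffold of the complex, gave 222, 202, 215 and 216 TPM in replicates 1 to 4, a mean of 214 ± 8.12 TPM (SD, n = 4). Eed (chromosome 7, 89954654 to 89980983, minus strand, ENSMUSG00000030619), whose protein binds trimethylated lysine 27 and stimulates the enzyme, gave 179, 165, 172 and 178 TPM, a mean of 174 ± 6.58 TPM. Both genes were lowest in replicate 2, and their ranges did not overlap. Suz12 lay above 96.0% of protein-coding genes and Eed above 94.9%.

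Ezh2 (chromosome 6, 47530139 to 47595341, minus strand, ENSMUSG00000029687), the methyltransferase of dividing cells, gave 128, 120.1, 126 and 128 TPM in replicates 1 to 4, a mean of 126 ± 3.77 TPM (SD, n = 4). Its paralog Ezh1 (chromosome 11, 101191115 to 101226463, minus strand, ENSMUSG00000006920), which is known to persist in cells that no longer divide, gave 9.91, 9.24, 9.88 and 9.65 TPM, a mean of 9.67 ± 0.308 TPM. Every library thus held far more Ezh2 than Ezh1 transcript. Ezh2 exceeded Ezh1 by 3.57 ± 0.02 on the log2(TPM + 1) scale, a ratio of 12.99 ± 0.192, and made up 92.9% ± 0.0973 of their summed TPM. This share ran only from 92.8% in replicate 3 to 93.0% in replicate 4. The difference had the same sign in 4 of 4 libraries. For each of the 11 pairs of genes compared, a two-sided exact permutation of signs returned p = 0.125, and the same value after adjustment over the 11 pairs. This is the smallest p that 4 libraries allow, so no pair can pass 0.05. The cell cycle genes Mki67, Top2a, Mcm3 and Pcna summed to 1807, 1669.5, 1701 and 1832 TPM in replicates 1 to 4. Most of this sum was Mcm3 and Pcna, at means of 713 and 743 TPM. How much the cells had divided was not measured. The part of these genes in the level of Ezh2 was not tested.

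The DNA upstream of these core genes is shown because they mark both ends of the range of levels. Each line gives the 250 bases before the annotated RefSeq start of 1 gene on GRCm38.p6 (the assembly of mm10). They run 5′ to 3′ on the gene's strand, with CpG dinucleotides in capitals. These starts can differ from the ends of the gene spans printed here, which come from the counted exons. The windows of Ezh2, Jarid2 and Cbx7 lie inside those spans, and those of Eed and Phf19 overlap them in part. The windows are chr11:79992856-79993105 (plus strand) for Suz12, chr7:89980977-89981226 (minus strand) for Eed, chr6:47595031-47595280 (minus strand) for Ezh2 and chr11:101226464-101226713 (minus strand) for Ezh1.
Suz12: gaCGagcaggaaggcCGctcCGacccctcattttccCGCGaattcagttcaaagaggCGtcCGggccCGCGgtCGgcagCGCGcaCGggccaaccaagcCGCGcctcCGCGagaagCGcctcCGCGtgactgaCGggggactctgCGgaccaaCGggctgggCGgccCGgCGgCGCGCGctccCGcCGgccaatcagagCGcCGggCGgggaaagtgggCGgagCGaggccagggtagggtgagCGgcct
Eed: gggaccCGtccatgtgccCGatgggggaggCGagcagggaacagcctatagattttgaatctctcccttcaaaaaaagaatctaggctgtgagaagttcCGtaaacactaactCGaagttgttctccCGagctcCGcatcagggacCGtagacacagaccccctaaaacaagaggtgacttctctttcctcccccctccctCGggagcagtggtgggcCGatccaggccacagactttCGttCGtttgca
Ezh2: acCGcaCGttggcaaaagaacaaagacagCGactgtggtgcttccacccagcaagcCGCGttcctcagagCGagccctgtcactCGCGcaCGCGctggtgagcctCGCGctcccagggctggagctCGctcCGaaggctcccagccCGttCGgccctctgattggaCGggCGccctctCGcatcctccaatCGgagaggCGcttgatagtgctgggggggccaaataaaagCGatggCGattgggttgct
Ezh1: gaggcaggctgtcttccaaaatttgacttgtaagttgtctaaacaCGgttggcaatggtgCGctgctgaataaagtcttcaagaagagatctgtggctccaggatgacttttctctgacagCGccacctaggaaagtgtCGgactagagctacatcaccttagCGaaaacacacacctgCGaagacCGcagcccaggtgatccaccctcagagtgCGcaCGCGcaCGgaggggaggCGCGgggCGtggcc
The Suz12 window held 37 CpGs, the Eed window 12, the Ezh2 window 23 and the Ezh1 window 14. All 10 genes matched the RefSeq table, with 11 windows because Jarid2 has 2 starts, and all 11 windows held more CpGs than the median of 6 over 32851 windows of the same length. The members' median was 23. The number of CpGs did not order these genes by level: Eed, the second highest, had the fewest. Motifs for E2F factors, spelled TTTGGCGC, TTTCGCGC, TTTCCCGC or TTTGCCGC on either strand, occurred in 2 of the 11 windows, those of Suz12 and Phf19, and in 1.86% of all windows. CCAAT, on either strand, occurred in 4 of the 11 windows and in 33.8% of all, and the Ezh2 window held 3 copies. The 2 motifs were counted separately, and a match is only a description of the letters.

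Accessory subunits split PRC2 into 2 forms, 1 with JARID2 and AEBP2, the other with 1 of the Polycomb-like proteins PHF1, MTF2 and PHF19. Both accessory members stood far below Suz12, Eed and Ezh2. Jarid2 (chromosome 13, 44729474 to 44921643, plus strand, ENSMUSG00000038518), whose protein binds ubiquitylated H2A, gave 22.8, 21.8, 22.9 and 24.2 TPM in replicates 1 to 4, a mean of 22.9 ± 0.999 TPM (SD, n = 4). Its partner gene Aebp2, which is no member, stood at 169 ± 10.7 TPM, so Jarid2 gave 11.97% ± 1.09 of the summed TPM of both. Jarid2 was lower than Aebp2 by a log2(TPM + 1) difference of -2.83 ± 0.14, in 4 of 4 libraries.

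Phf19 (chromosome 2, 34893757 to 34914026, minus strand, ENSMUSG00000026873), whose protein reads methylated lysine 36 of histone H3, gave 14.5, 12.2, 11.96 and 13.4 TPM in replicates 1 to 4, a mean of 13.01 ± 1.17 TPM (SD, n = 4). Replicate 1 was highest. Mtf2 was the most abundant Polycomb-like gene at 59.5 ± 2.56 TPM, with Phf1 at 10.7 ± 1.33 TPM. Of the 50-base words of Phf1, 28.3% occur on either strand in other genes' transcripts, among them Cuta, so its value is called uncertain. No exon bases of Phf1 overlap another gene on the same strand. How many of its reads were left out was not measured. Phf19 made up 15.6% ± 1.06 of the summed TPM of the 3 genes and differed from Mtf2 by -2.11 ± 0.10 on the log2(TPM + 1) scale. Jarid2 exceeded Phf19 by 0.78 ± 0.11 on that scale, again in 4 of 4 libraries.

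By mean TPM, the PRC1 members Rnf2, Ring1 and Bmi1 lay below Suz12, Eed and Ezh2 and above Jarid2 and Phf19. Ring1 and Jarid2 had overlapping ranges. Rnf2 (chromosome 1, 151458004 to 151500955, minus strand, ENSMUSG00000026484), a ubiquitin ligase also called RING1B, gave 71.7, 63.1, 72.0 and 65.9 TPM in replicates 1 to 4, a mean of 68.2 ± 4.36 TPM (SD, n = 4). Ring1 (chromosome 17, 34020792 to 34024680, minus strand, ENSMUSG00000024325), the paralogous ligase, gave 24.3, 25.8, 23.1 and 25.2 TPM, a mean of 24.6 ± 1.19 TPM. The ranges were far apart, and the libraries with more Rnf2, replicates 1 and 3, were those with less Ring1. Rnf2 exceeded Ring1 by 1.43 ± 0.16 on the log2(TPM + 1) scale and made up 73.4% ± 2.16 of their summed TPM, from 71.0% in replicate 2 to 75.7% in replicate 3.

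Bmi1 (chromosome 2, 18677018 to 18686629, plus strand, ENSMUSG00000026739), also called Pcgf4, codes for a PCGF protein of canonical PRC1 and is known for repressing the cell cycle inhibitor locus Cdkn2a. It gave 94.4, 88.8, 96.0 and 90.2 TPM in replicates 1 to 4, a mean of 92.4 ± 3.42 TPM (SD, n = 4). It exceeded Rnf2 by 0.43 ± 0.04 and its paralog Pcgf2, at 7.68 ± 0.557 TPM, by 3.43 ± 0.09 on the log2(TPM + 1) scale, both in 4 of 4 libraries. Of the 50-base words of Bmi1, 16.7% also occur in other genes, mainly Gm5946, and read pairs that map to several places were not counted. Bmi1 made up 30.0% ± 0.460 of the summed TPM of the 6 PCGF genes. With merged exon lengths Pcgf5, of a variant PRC1, was higher at 116 ± 3.36 TPM, and below Bmi1 stood Pcgf6 at 65.4 ± 2.86 TPM, Pcgf3 at 13.7 ± 0.630 TPM and Pcgf1 at 12.4 ± 0.784 TPM. The Pcgf5 level depends on its length: the deposited counts cover 1659 exon bases, while its principal transcript in GENCODE M21 has 6443, much of it outside the bases counted. With principal transcript lengths, of which that of Pcgf5 was limited to the 1659 bases, Pcgf5 stood at 79.1 ± 2.28 TPM and Bmi1 at 69.7 ± 2.58 TPM. The level of Pcgf5 over its whole principal transcript was not measured, so its place above Bmi1 holds for the counted bases only.

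Cbx7 (chromosome 15, 79915807 to 79971119, minus strand, ENSMUSG00000053411), whose chromodomain binds methylated lysine 27, gave 27.9, 27.4, 25.7 and 27.3 TPM in replicates 1 to 4, a mean of 27.1 ± 0.971 TPM (SD, n = 4). Cbx6 stood above it at 40.0 ± 1.89 TPM with merged exon lengths, but below it with the lengths of the principal transcripts, at 29.6 ± 1.39 TPM against 35.3 ± 1.26 TPM for Cbx7. For Cbx6, 8.95% of the exon bases overlap another gene on the same strand, where reads are not counted. Cbx2 at 20.2 ± 0.398 TPM and Cbx8 at 4.26 ± 0.455 TPM stood below Cbx7. With merged exon lengths, the ranges of these 4 genes did not overlap.

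**Figure D2:**
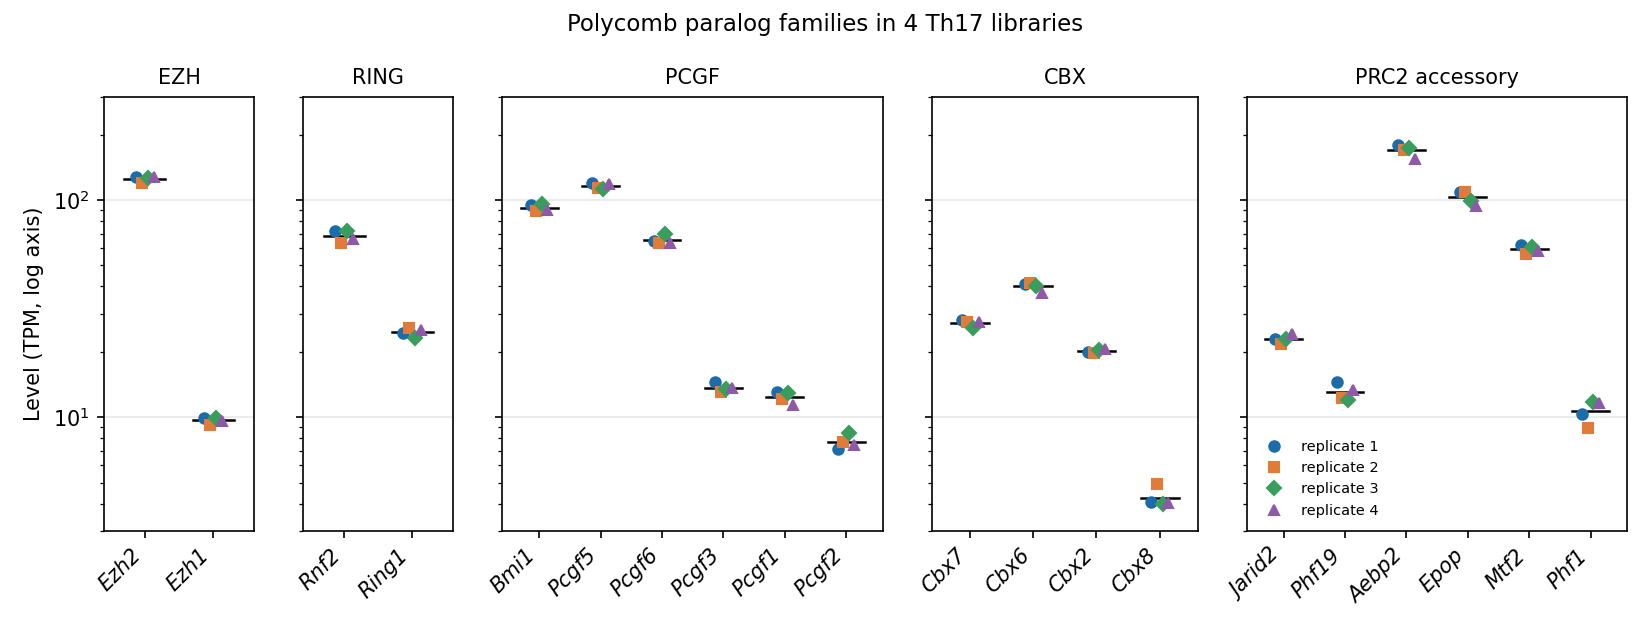
Level in TPM on a log axis of the genes of each paralog family or subunit class, 1 symbol per library, with the mean as a bar and the members at the left of each panel. Ezh2 at 126 TPM and Ezh1 at 9.67 TPM stand farthest apart of the catalytic pairs, while Pcgf5 at 116 TPM lies above Bmi1 and Cbx6 at 40.0 TPM above Cbx7. These levels use merged exon lengths: with principal transcript lengths Cbx7 lies above Cbx6, and Pcgf5 was counted over part of its transcript only.

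Ordered by mean TPM with merged exon lengths, the genes ran Suz12, Eed, Ezh2, Bmi1, Rnf2, Cbx7, Ring1, Jarid2, Phf19 and Ezh1. All 4 libraries held exactly this order. Of the 9 pairs of neighbours, 7 had ranges that did not overlap between libraries. The other 2 were Cbx7 and Ring1, with a mean ratio of 1.10 ± 0.0378, and Ring1 and Jarid2, with a mean ratio of 1.07 ± 0.0771 (SD, n = 4). The ranges of Cbx7 and Jarid2 did not overlap. The largest step between neighbours was that from Rnf2 to Cbx7, a ratio of 2.52 ± 0.216. With principal transcript lengths this ratio was 1.70 ± 0.145, and the largest step was from Suz12 to Bmi1 at 2.37 ± 0.0733. Ring1 then lay above Jarid2, and Phf19 above Ezh1, in 3 of 4 libraries each.

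The order within the PRC2 core depends on the gene length used. The deposited length merges the exons of all transcripts, which for Ezh2 comes to 6678 bases, where its principal transcript in GENCODE M21 has 2787, while for Suz12 the lengths are 4945 and 4373. With the length of the principal transcript, at most the merged length, an alternative chosen after the data were seen, Eed stood at 219 ± 8.30 TPM, Ezh2 at 205 ± 6.18 TPM and Suz12 at 165 ± 6.26 TPM (SD, n = 4). The differences from Suz12 then turned. For Eed minus Suz12 the difference in log2(TPM + 1) was 0.41 with the principal transcript and -0.30 ± 0.02 with merged exons, and for Ezh2 minus Suz12 it was 0.31 and -0.76 ± 0.02. Phf19 and Ezh1 drew level at 11.95 ± 1.08 and 11.7 ± 0.373 TPM. Ezh2 stayed far above Ezh1 with 94.6% of their sum, and Suz12, Eed and Ezh2 stayed above the other 7. Which transcripts the cells made was not measured here.

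**Figure D3:**
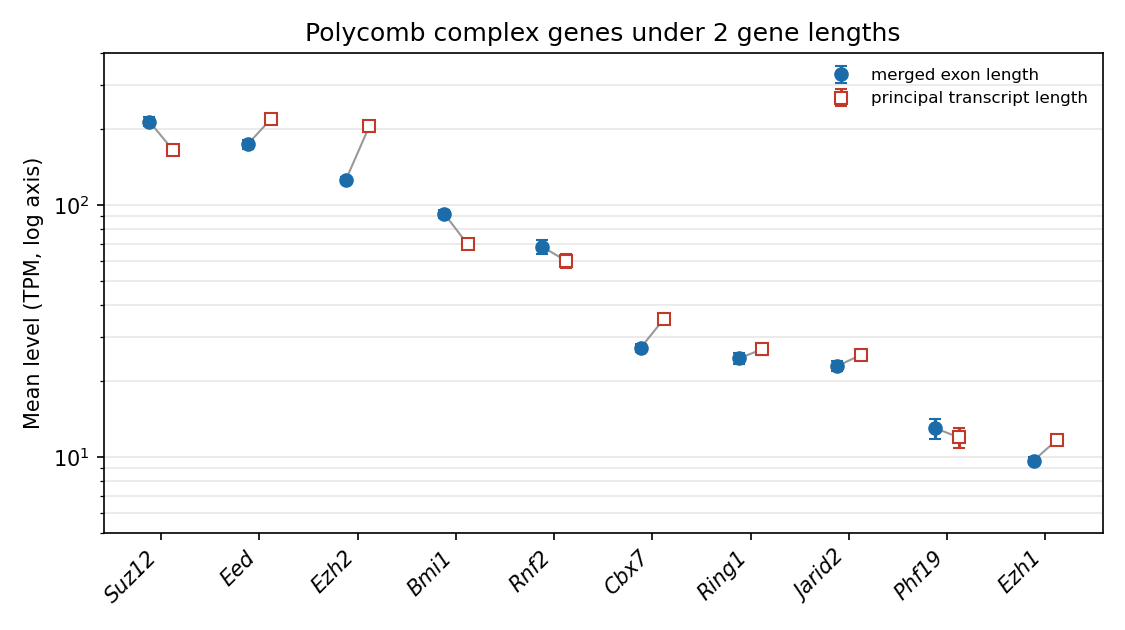
Mean level of each gene in TPM on a log axis, with the merged exon length (filled circles) and with the principal transcript length (open squares), and bars of 1 SD over 4 libraries. With the principal transcript, Ezh2 stands at 205 TPM, against 126 TPM with merged exons, and Suz12 at 165 TPM, against 214 TPM.

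Variation between libraries was tested by the negative binomial deviance test at edgeR's trended dispersion. None of the 10 varied beyond the dispersion trend of genes of like abundance. Benjamini-Hochberg adjustment was over 12849 genes, of which 47, or 0.366%, were called. With so few genes called, 0 of 10 is near the share over all genes and does not set the members apart. The smallest unadjusted p was 0.208, for Rnf2. Against counting error alone 7 of the 10 varied, where 48.5% of all genes did. The coefficient of variation was 3.00% for Ezh2 and 9.03% for Phf19, the extremes of the list, and its median was 3.79%, against 6.16% over all genes tested. The genes tested reach down to a mean of 10 counts, and these medians were not matched for abundance. Replicate 2, which was also the shallowest library, held the lowest TPM of 7 members and the highest of only Ring1, and the summed TPM of the 10 genes was 795, 736, 775 and 778 in replicates 1 to 4. The part of depth in this was not tested. The protein-coding genes nearest to Ezh2, by the largest absolute difference of log2(TPM + 1) over the 4 libraries, were Tut1 at 0.03, Ddx52 at 0.03 and Pphln1 at 0.03.

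Other genes of the Polycomb system were mostly expressed as well. Of 43 further genes, from a list chosen by function, 39 were called above 1 TPM by edgeR's test, 3 were called below it and 1 got no call, with a median of 38.5 TPM. DESeq2's Wald test called 39 above and 1 below. The 45.9% of all protein-coding genes above 1 TPM and the 51.5% below are the background of these counts. Rbbp7 and Rbbp4, histone-binding subunits that PRC2 shares with other complexes, stood at 519.7 ± 5.52 and 175 ± 8.53 TPM (SD, n = 4). Epop, which links PRC2 to elongin, was at 103 ± 7.74 TPM. Ezhip, the gene of a PRC2 inhibitor known from the germ line, had no count in any library, an upper limit of 0.0317 TPM. Such limits stand for 3 counts summed over the libraries and cover counting error only.

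Among the remaining subunits, Phc2 and Phc3, which let PRC1 polymerise, stood at 60.9 ± 1.49 and 12.7 ± 0.831 TPM (SD, n = 4). Scml2 was at 0.988 ± 0.155 TPM and got no call in either direction. In variant PRC1, the deubiquitinase gene Usp7 at 148 ± 3.84 TPM and the corepressor gene Bcor at 108 ± 5.18 TPM were highest, and Auts2 was lowest at 0.0293 ± 0.0285 TPM. In the complex that removes ubiquitin from H2A, the enzyme gene Bap1 was at 99.8 ± 1.91 TPM and Foxk2 at 93.4 ± 2.64 TPM, while Asxl3 gave no count, an upper limit of 0.00450 TPM.

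The 2 demethylase genes that remove the mark written by EZH2 were both expressed below Ezh2. Kdm6b, also called Jmjd3, gave 71.6, 78.9, 77.7 and 68.2 TPM in replicates 1 to 4, and Ezh2 exceeded it by 0.76 ± 0.13 on the log2(TPM + 1) scale (SD, n = 4). Kdm6a, also called Utx and carried on the X chromosome, gave 21.03, 18.9, 31.8 and 33.5 TPM, and Ezh2 exceeded it by 2.25 ± 0.37. Replicates 3 and 4 were high and replicates 1 and 2 low, without overlap, in the same way as Xist. Kdm6a varied between libraries beyond the dispersion trend (edgeR trended dispersion, adjusted p = 1.78e-12, and at most 3.04e-07 with any single library left out), the only one of the 40 further Polycomb genes tested that did, and ranked 9th by p among 12849 genes. Its Y-linked paralog Uty, named after its values were seen, stood at 6.82, 6.46, 0.00981 and 0.0210 TPM. The sum of both was 27.8, 25.4, 31.8 and 33.5 TPM. The part of the sex-linked split in the spread of Kdm6a was not tested.

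**Figure D4:**
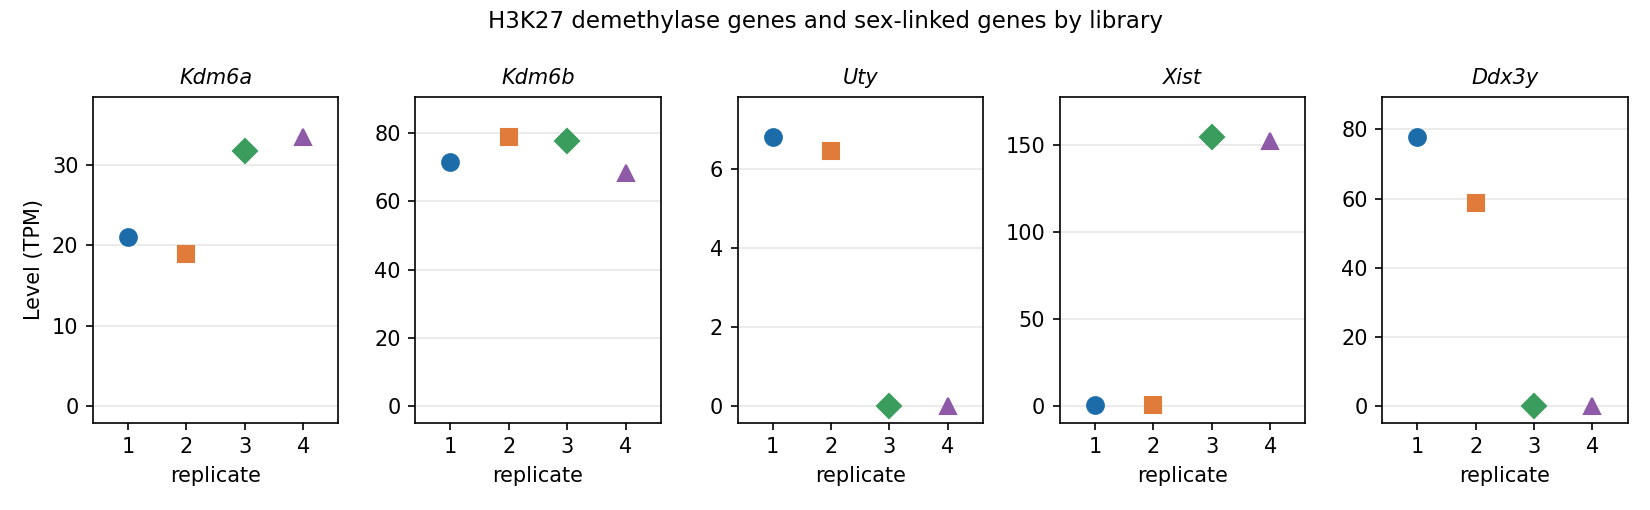
Level in TPM, on a linear axis of its own for each gene, of the demethylase genes Kdm6a and Kdm6b, the Kdm6a paralog Uty, Xist and Ddx3y in each of the 4 libraries. Kdm6a is high in replicates 3 and 4 at 31.8 and 33.5 TPM, the libraries with Xist, and Uty is seen in replicates 1 and 2.

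Genes that are textbook targets of Polycomb silencing stood at the other end of the scale. Of the 39 Hox genes together with Cdkn2a and Cdkn2b, 0 of 41 lay above 1 TPM and 40 below by edgeR's test. At an unadjusted p under 0.05, 0 were above. That test called 45.9% of all protein-coding genes above and 51.5% below. The count below was 13 with DESeq2's Wald test, which gave no p for 27 genes and called 15.5% of all protein-coding genes below. No library had a count for 27 of the 41, with upper limits of at most 0.0678 TPM. Cdkn2a was one of them, at a limit of 0.0596 TPM. Hoxd3 and Hoxd4 were also among them, and as 62.3% of the exon bases of Hoxd3 and 52.3% of those of Hoxd4 overlap each other or Gm28230 on the same strand, reads there would not be counted. Other genes' transcripts, on either strand, hold 60.3% of the 50-base words of Hoxd3, 51.4% of Hoxb3 and 46.8% of Hoxd4. For Hoxa11 and Hoxb2 the shares are 33.0% and 25.9%. These levels are called uncertain, as for Phf1, though all are among the 40 called below. Among all 21764 protein-coding genes, those without a count shared rank 14061 by mean TPM, so many genes outside this list had none either. Only 5 of the 41 target genes had a mean of at least 0.1 TPM. Hoxb4, known from blood stem cells, was the highest with 0.992, 0.741, 1.35 and 1.28 TPM in replicates 1 to 4, with no call in either direction (adjusted p = 0.450 in the edgeR test). The other 4 were all in the Hoxa cluster, with Hoxa4 at 0.271 ± 0.293, Hoxa7 at 0.264 ± 0.240, Hoxa5 at 0.209 ± 0.0370 and Hoxa6 at 0.198 ± 0.103 TPM (SD, n = 4). Histone marks were not measured, so these levels do not show which genes Polycomb proteins occupied.

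**Figure D5:**
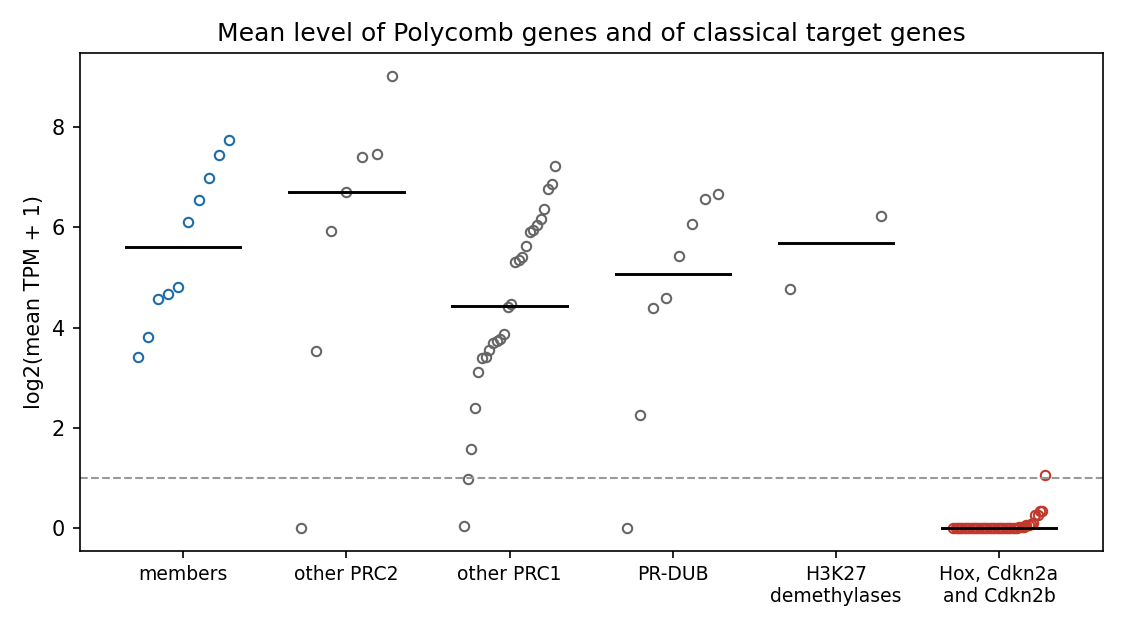
Mean level over 4 libraries as log2(TPM + 1), 1 circle per gene, in rising order within each list, with the list's median as a bar and 1 TPM as a dashed line. All 10 members and 39 of the 43 further Polycomb genes were called above 1 TPM, and 40 of the 41 Hox, Cdkn2a and Cdkn2b genes below it. Of all protein-coding genes, 45.9% were called above and 51.5% below.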

How the data were processed

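Gene counts of 4 Th17 libraries were used. The libraries are labelled total RNA-seq, with a library protocol named for poly(A) RNA. The deposited values are raw counts of read pairs, which the authors assigned to merged GENCODE M13 exons on mm10 with featureCounts 1.4.6-p4, counting the reverse strand, requiring both ends to map and leaving out multi-mapping reads, per the file headers. No source used here gives the aligner's version. GENCODE M21 gave symbols for 50376 of 50600 Ensembl identifiers, and a RefSeq synonym gave Ezhip. TPM was computed here over all genes from counts and merged exon lengths.

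The level test (R 4.3.3) used edgeR 4.0.16, as an intercept test whose offset is the count at 1 TPM. DESeq2 1.42.0 was the alternative. Its p-values and edgeR's rest on a dispersion shared between genes. Variation between libraries was tested after TMM normalization where the mean count was 10 or more. The threshold was an adjusted p of 0.05. Pairs of genes were compared as log2(TPM + 1) within each library. Words of 50 bases were compared between M21 transcripts, and a level is called uncertain from 25% shared. Both strands were compared, so the share includes words of genes on the opposite strand of the same place. Total counts set the precision, and read pairs carry no molecular identifiers, so limits cover counting error only. All pairs of libraries differed beyond sampling noise (chi-square per degree of freedom 4.57 to 12.3).

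The members and lists were chosen with earlier results of these data known. The text names all members, their PRC2, PCGF and CBX relatives and both demethylase genes, the 2 highest and the lowest of other lists, target genes averaging at least 0.1 TPM, and the 3 genes nearest to Ezh2. Uty, Xist and Ddx3y were added after their values were seen. One further gene of the lists, with the pair and the share that used it, is not reported here.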

Additional observations from a re-analysis of the deposited data

Results flagged for a closer look

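Of 55 values tested over the 4 libraries, 4 had a library far from the other 3, where chance flags about 1 in 20. The gap to the nearest library, as a share of the whole range, was above Dixon's limit for 4 values in each. Cbx8 stood at 4.07, 4.94, 4.00 and 4.02 TPM in replicates 1 to 4, with replicate 2 apart (0.931). Scml2 stood at 0.756, 1.05, 1.06 and 1.08 TPM, with replicate 1 apart (0.900). Neither Cbx8 nor Scml2 varied beyond the dispersion trend (negative binomial deviance test, unadjusted p = 0.670 and 0.537). The share of Jarid2 in the summed TPM of Jarid2 and Aebp2 was 11.3%, 11.3%, 11.7% and 13.6%, with replicate 4 apart (0.851), and the difference of Jarid2 minus Aebp2 in log2(TPM + 1) set the same library apart (0.840) at -2.62, against -2.92, -2.91 and -2.87 in replicates 1 to 3. This share and this difference use the same genes, so they are not separate flags.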

How the results depend on the processing

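All 120 alternatives for the level of single members, over 12 settings, kept their direction and their call above 1 TPM, and 86 of 88 alternatives for the pairs kept their direction. The 2 that reversed were Eed minus Suz12 at 0.41 and Ezh2 minus Suz12 at 0.31, both with principal transcript lengths, a change that lies in the lengths alone. Leaving out 1 library could not turn a pair, as each difference had the same sign in 4 of 4 libraries. Even against 2 TPM the lowest member, Ezh1, had a log2 level of 2.28, so such settings had little room to change a call. These counts of alternatives are therefore a weak check. Shares moved with length. With principal transcript lengths, limited to the merged length where that was shorter, Ezh2 made up 94.6%, Rnf2 69.1% and Jarid2 7.70% of their sets. Bmi1 made up 30.6%, with Pcgf5 still at its merged length. With counts in place of TPM, Ezh2 made up 92.1%, Rnf2 77.9% and Bmi1 41.9%. The count of members varying between libraries was 7 against counting error only and 0 with the other 7 settings. The further Polycomb genes below 1 TPM were 1 with DESeq2 and 0 when only genes averaging 10 or more counts were tested, and the target genes below were 13 and 0, since that filter leaves the genes with few counts untested. At a level of 0.5 TPM 1 target gene, Hoxb4, was above, and Scml2 turned to a log2 level of 0.97 over it. At 2 TPM Hoxb4 turned to -0.81. No paired analysis was possible because only 1 group was measured. Depth limits the genes near 0: Hoxa and Cdkn2b values rest on few counts.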
